A study of Rattus norvegicus with 68 samples.

Results

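Messenger RNA of 10 genes of inflammatory cytokine signalling was followed in the nasal epithelium of rats that inhaled formaldehyde. The genes were Il1a, Il1b, Il1rn, Il1r2, Il6, Il18, Il33, Tnf, Tnfaip3 and Nfkbia, and their probe sets were found by gene symbol. They were 10 of the 14217 genes that had a probe set of their own on the array, and all 10 were measured. Il1a, Il33 and Tnf each had a further probe set, and the brighter of the pair, by its mean over the arrays, was used.

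Arrays of 68 male F344/CrlBR rats were analysed. The rats, 8 weeks old at the start, were kept in whole-body inhalation chambers for 6 h per day and 5 d per week. Exposures to 0.7, 2, 6, 10 or 15 ppm formaldehyde lasted 5 d, 4 w or 13 w, with 0 ppm controls at 5 d and 13 w. There were 4 rats in each of the 17 groups and 1 Rat230_2 array per rat. At 4 w the reference was the group exposed to 0.7 ppm, since 0 ppm arrays of that time were not analysed here. Cells were freed by protease from the lateral meatus and nasoturbinate of the level II nose, and the maxilloturbinate and olfactory epithelium were not kept. The lining recovered was described as mainly transitional with some respiratory epithelium. Markers of olfactory neurons and fibroblasts still gave signal on the arrays, as given with the cell markers below. Titles of the 0 ppm arrays carry the codes ACO1 at 5 d and ACO3 at 13 w where those of exposed arrays carry HCHO, and whatever the codes stand for cannot be told apart from dose.

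Interleukin-1 alpha and beta are cytokines that activate the same cell-surface receptor. Il1rn encodes a secreted antagonist of that receptor, and Il1r2 encodes a decoy receptor that binds interleukin-1 without signalling. Interleukin-18 and interleukin-33 belong to the same family, and in epithelium interleukin-33 is stored in the nucleus and acts as an alarm signal when cells are damaged. Interleukin-1 and TNF both activate the transcription factor NF-kB, which in turn induces its own inhibitors, among them Nfkbia (IkB-alpha, which holds NF-kB in the cytoplasm) and Tnfaip3 (A20, an enzyme that edits ubiquitin on upstream signalling proteins). Interleukin-6 is a cytokine downstream of the same pathway.

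The deposited values are log2 signals, so a difference of 1 is a doubling of signal. Changes are log2 differences ± SE from a limma fit to all 68 arrays, with n = 4 rats in each group. A gene was called where its Benjamini-Hochberg adjusted p over 14217 genes was under 0.05. A group mean under 6 was treated as low signal, where the size of a change is uncertain, and levels of different genes were not set against each other because each probe set has its own response. Rats were separate animals and no label pairs them, so a p-value sets a difference against the spread between rats within groups, pooled over the 17 groups.

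The strongest response of these genes was at 15 ppm after 5 d. There 8 of the 10 were called higher and 0 lower against 0 ppm, while 18.3% of all genes were called higher and 19.5% lower. The median change of the 10 was 1.15, and that of all genes was -0.01. After 4 w at 15 ppm, 5 were called higher (21.3% of all genes) and 0 lower (16.1%), with a median of 0.50 for the 10 and 0.01 for all genes. After 13 w at 15 ppm, 3 were called higher (23.5% of all genes) and 1 lower (20.6%), with a median of 0.46 for the 10 and -0.02 for all genes. The count at 13 w at 15 ppm thus lay closer to the share of all genes than the count at 5 d did. The 4 w count is against 0.7 ppm and the others against 0 ppm, so it cannot be set against them. With 0.7 ppm as the reference at both times, the response at 15 ppm was called different between 13 w and 4 w for 0 of the 10 (0.0633% of all genes). The median difference was -0.02 for the 10 and -0.01 for all genes. Between 4 w and 5 d it was called different for 0 of the 10 (3.45% of all genes), with a median difference of -0.52 for the 10 and 0.01 for all genes.

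At 10 ppm, 0 of the 10 were called after 5 d, where 15.5% of all genes were, and 2 of the 10 had an unadjusted limma p under 0.05. At 4 w 3 were called higher at 10 ppm against 9.03% of all genes, and at 13 w 2 were called higher against 13.8% of all genes. At 6 ppm the limma fit called 0 of the 10 at each time, while it called 8.83% of all genes at 5 d, 3.28% at 4 w and 12.2% at 13 w. The counts of the 10 with an unadjusted p under 0.05 at 6 ppm were 0, 2 and 1 in that order. At 2 ppm 0 of the 10 were called by limma at 5 d (0.0281% of all genes), at 4 w (0.0211%) or at 13 w (0.00703%), and 0 had an unadjusted p under 0.05. At 0.7 ppm 0 of the 10 were called by limma at 5 d (0% of all genes) or at 13 w (0%), with 0 and 3 at an unadjusted p under 0.05.

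Il1b, the gene of interleukin-1 beta, had the second largest change of the 10 at 5 d and 15 ppm. Its log2 signal in the 4 rats of 0 ppm at 5 d was 8.13, 8.64, 8.65 and 8.89, and in those of 15 ppm it was 11.80, 12.29, 12.55 and 12.86. Every rat of 15 ppm lay above every rat of 0 ppm. The change was 3.80 ± 0.54, a 13.9-fold rise (limma adjusted p = 7.0e-08). Between 10 and 15 ppm the signal rose by a further 2.94 ± 0.54 (limma adjusted p = 5.5e-05).

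At 4 w Il1b was already higher at 10 ppm. Its signal was 7.72, 8.11, 8.25 and 8.67 at 0.7 ppm, 9.73, 9.99, 10.19 and 10.91 at 10 ppm, and 10.62, 10.91, 11.26 and 11.41 at 15 ppm. Both exposed groups lay wholly above 0.7 ppm and overlapped each other. The changes against 0.7 ppm were 2.02 ± 0.54 at 10 ppm and 2.86 ± 0.54 at 15 ppm (limma adjusted p = 0.0064 and 2.1e-05). The step from 10 to 15 ppm, 0.84 ± 0.54, was not called (limma adjusted p = 0.38).

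At 13 w the change of Il1b depended on the reference. The signal was 8.13, 8.99, 9.43 and 9.63 at 0 ppm, 7.33, 7.33, 7.61 and 8.31 at 0.7 ppm, and 8.67, 9.53, 10.21 and 10.48 at 15 ppm. The 15 ppm rats overlapped those of 0 ppm and lay above those of 0.7 ppm. Against 0 ppm the change of 0.67 ± 0.54 was not called (limma adjusted p = 0.33, with a 95% interval from -0.41 to 1.76). Against 0.7 ppm it was 2.07 and was called (limma adjusted p = 0.0011).

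Il1a, the gene of interleukin-1 alpha, moved in the same direction from a low signal. At 5 d it was 5.21, 5.83, 5.87 and 6.33 at 0 ppm and 6.70, 7.03, 7.73 and 7.89 at 15 ppm, with no overlap. The change was 1.53 ± 0.41 (limma adjusted p = 0.0023), and its size is uncertain because the 0 ppm mean of 5.81 is low signal. At 4 w the change at 15 ppm was 1.05 ± 0.41 (limma adjusted p = 0.039). That call was lost when any of 5 rats was left out, namely 243 or 245 of 0.7 ppm and 365, 368 or 369 of 15 ppm, where the limma adjusted p was between 0.053 and 0.16. The second probe set of Il1a changed by 0.72 ± 0.21 at 5 d and by 0.26 ± 0.21 at 4 w, and among all probe sets the latter was not called (limma adjusted p = 0.40). At 13 w the change of 0.45 ± 0.41 was not called against 0 ppm (limma adjusted p = 0.42), but against 0.7 ppm it was 1.05 and was called (limma adjusted p = 0.032).

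**Figure D1:**
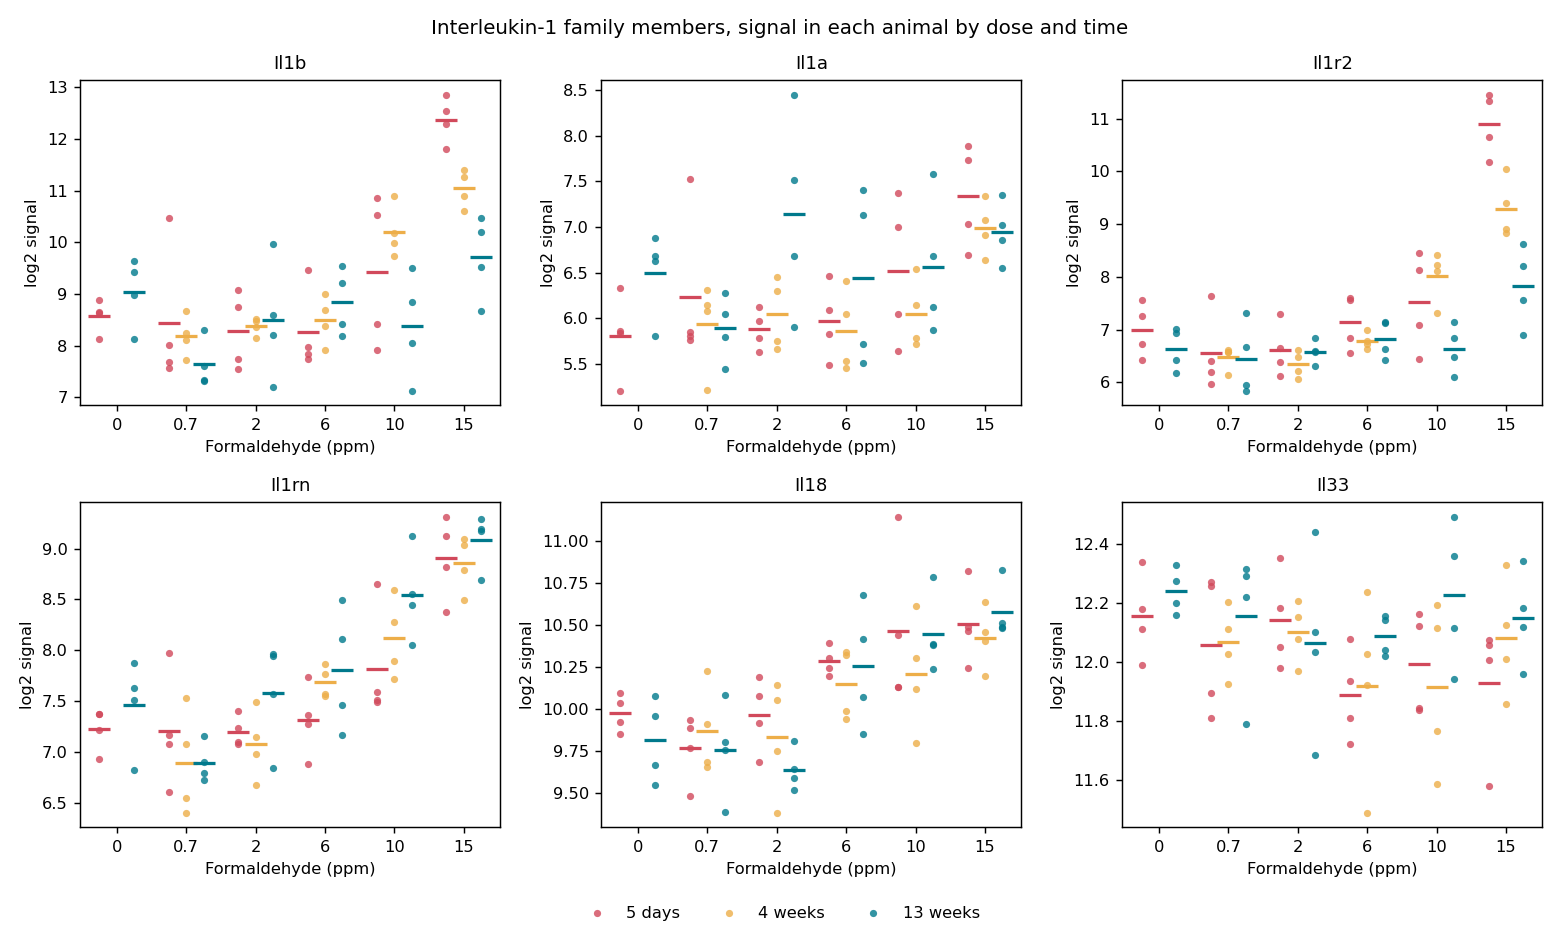
Log2 signal (vertical axis) of Il1b, Il1a, Il1r2, Il1rn, Il18 and Il33 in each rat by formaldehyde concentration in ppm (horizontal axis, not to scale) and exposure time (colour), where points are rats and bars are means of 4 rats. The 5 d rats of 15 ppm stand above all others in Il1b, at 11.80 or more, and in Il1r2, at 10.19 or more, while Il33 stays between 11.49 and 12.49 throughout.

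The decoy receptor gene Il1r2 had the largest change of the 10 at 5 d and 15 ppm. Its signal was 6.43, 6.73, 7.25 and 7.56 at 0 ppm and 10.19, 10.66, 11.33 and 11.46 at 15 ppm, and the groups did not overlap. The change was 3.92 ± 0.37, a 15.1-fold rise (limma adjusted p = 7.2e-13). At 4 w the signal was 6.13 to 6.61 at 0.7 ppm, 7.32 to 8.41 at 10 ppm and 8.82 to 10.04 at 15 ppm, and none of the 3 ranges overlapped. The changes against 0.7 ppm were 1.54 ± 0.37 and 2.82 ± 0.37 (limma adjusted p = 0.0020 and 1.0e-08). At 13 w the signal was 6.17, 6.43, 6.94 and 7.01 at 0 ppm and 6.89, 7.57, 8.20 and 8.62 at 15 ppm, where the lowest exposed rat lay below the highest control rats. The change was 1.18 ± 0.37 (limma adjusted p = 0.0065), and without rat 379 of 15 ppm it was 0.92 and no longer called (limma adjusted p = 0.053).

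Il1r2 was the gene among the 10 that was called higher at 15 than at 10 ppm at every time. The step was 3.38 ± 0.37 at 5 d (limma adjusted p = 2.1e-10), 1.28 ± 0.37 at 4 w (0.026) and 1.18 ± 0.37 at 13 w (0.025). Leaving out a single rat ended the call of the step at 4 w (331 of 10 ppm, or 365 or 368 of 15 ppm) and at 13 w (341 or 348 of 10 ppm, or 377 or 379 of 15 ppm), with changes between 0.91 and 1.24. In all, 6 of the 10 genes were called higher at 15 than at 10 ppm at 5 d against 7.18% of all genes, 1 at 4 w against 5.11%, and 1 at 13 w against 8.55%.

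Il1rn, the receptor antagonist, was called higher at 15 ppm at all 3 times. At 5 d its signal was 6.93, 7.21, 7.37 and 7.38 at 0 ppm and 8.38, 8.82, 9.12 and 9.32 at 15 ppm. At 13 w it was 6.83, 7.51, 7.63 and 7.88 at 0 ppm and 8.69, 9.18, 9.19 and 9.29 at 15 ppm. In neither pair did the groups overlap, and the exposed rats reached the same range at both times. The changes were 1.69 ± 0.28 at 5 d (3.22-fold, limma adjusted p = 1.8e-06), 1.96 ± 0.28 at 4 w (3.90-fold, 8.2e-08) and 1.62 ± 0.28 at 13 w (3.08-fold, 2.5e-06). At 10 ppm Il1rn was called at 4 w, by 1.23 ± 0.28 (limma adjusted p = 0.0012), and at 13 w, by 1.08 ± 0.28 (0.0022). At 10 ppm and 5 d the change was 0.59 ± 0.28 and was not called, and rat 329 stood apart at 8.66 from 7.49 to 7.59 in the other 3.

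Il18, which encodes a cytokine kept as an inactive precursor in epithelial cells, had small changes that were called at 15 ppm at all 3 times. Its signal at 5 d was 9.85, 9.92, 10.03 and 10.09 at 0 ppm and 10.24, 10.46, 10.49 and 10.82 at 15 ppm. At 13 w it was 9.54, 9.67, 9.96 and 10.08 at 0 ppm and 10.48, 10.48, 10.51 and 10.83 at 15 ppm. The groups did not overlap at either time. At 4 w they did, with 9.65 to 10.22 at 0.7 ppm and 10.19 to 10.63 at 15 ppm. The changes were 0.53 ± 0.18 at 5 d (limma adjusted p = 0.016), 0.56 ± 0.18 at 4 w (0.011) and 0.76 ± 0.18 at 13 w (3.8e-04), or 1.44-, 1.47- and 1.70-fold. Il18 was also called at 10 ppm and 13 w, by 0.63 ± 0.18 (limma adjusted p = 0.0057). At 10 ppm and 5 d its change of 0.49 ± 0.18 missed the threshold (limma adjusted p = 0.057), and it was called without rat 324 or rat 330, at 0.60 (0.023 and 0.028). Without rat 329, the highest of that group, it was 0.26 (limma adjusted p = 0.46).

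RNA integrity differed between these groups, with a mean integrity number of 7.68 at 0 ppm and 8.32 at 15 ppm at 5 d, and of 7.57 and 8.90 at 13 w. Fits with that number as a covariate left out the rats without it, which left 3 at 0 ppm and 3 at 15 ppm at 13 w. With the covariate the change of Il18 was 0.45 at 5 d (limma adjusted p = 0.060) and 0.55 at 13 w (0.077). At 10 ppm and 13 w it was 0.44 (limma adjusted p = 0.14), and none of these was called. Without rat 356 of 15 ppm the 5 d change was 0.42 (limma adjusted p = 0.089). The part of RNA integrity in the change of Il18 was not tested beyond this.

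Il33 had high signal in every group and was not called in any comparison. Its group means ran from 11.89 to 12.24 over the 17 groups, and single rats from 11.49 to 12.49. At 15 ppm the changes were -0.22 ± 0.14 at 5 d (95% interval -0.51 to 0.06), 0.01 ± 0.14 at 4 w (-0.27 to 0.30) and -0.09 ± 0.14 at 13 w (-0.37 to 0.20). The second probe set of Il33 changed by 0.24 ± 0.21, -0.31 ± 0.21 and -0.11 ± 0.21 at these times, and was not called either. A change of mRNA is not a measure of the release of stored protein, which was not assayed.

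Tnf, the gene of tumour necrosis factor, was not called at 15 ppm at 5 d. Its signal there was 6.28, 6.60, 6.72 and 6.72 at 0 ppm and 6.44, 6.83, 7.00 and 7.29 at 15 ppm, with overlap. The change was 0.31 ± 0.19 (limma adjusted p = 0.21, with a 95% interval from -0.07 to 0.68), and with RNA integrity as a covariate it was 0.45 and was called (limma adjusted p = 0.047). At 13 w the signal was 6.62, 6.80, 7.01 and 7.09 at 0 ppm and 5.87, 6.17, 6.28 and 6.31 at 15 ppm, with every exposed rat below every control rat. It fell by 0.72 ± 0.19 (limma adjusted p = 0.0011).

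The fall of Tnf at 13 w was not found in every reading of the data. A second probe set for Tnf, with a lower mean signal (6.18 over all arrays), changed by 0.03 ± 0.09 there, so the 2 probe sets disagree. With RNA integrity as a covariate, in the 3 rats of each group that had the number, the change was -0.29 (limma adjusted p = 0.36). Against 0.7 ppm it was -0.29 (limma adjusted p = 0.22), and neither was called. At 4 w the change of Tnf at 15 ppm was -0.27 ± 0.19 and was not called (limma adjusted p = 0.28).

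Il6 had low signal throughout, with no group mean reaching 6, so no fold is given. At 5 d its signal was 4.48, 4.51, 4.85 and 5.20 at 0 ppm and 5.14, 5.15, 5.50 and 7.89 at 15 ppm, and the groups overlapped. The change of 1.16 ± 0.40 was called (limma adjusted p = 0.018). Without rat 356, which had the value of 7.89, the change was 0.50 (limma adjusted p = 0.33). The call was also lost without rat 204 of 0 ppm (limma adjusted p = 0.051) and with RNA integrity as a covariate (0.061). The step of Il6 from 10 to 15 ppm at 5 d, 1.20 ± 0.40 (limma adjusted p = 0.031), was 0.54 without rat 356 (0.40) and was not called when any rat of 10 ppm was left out. A further rat with a high value was 310 of 6 ppm at 4 w, at 7.94 against 4.59 to 5.27 in its group.

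**Figure D2:**
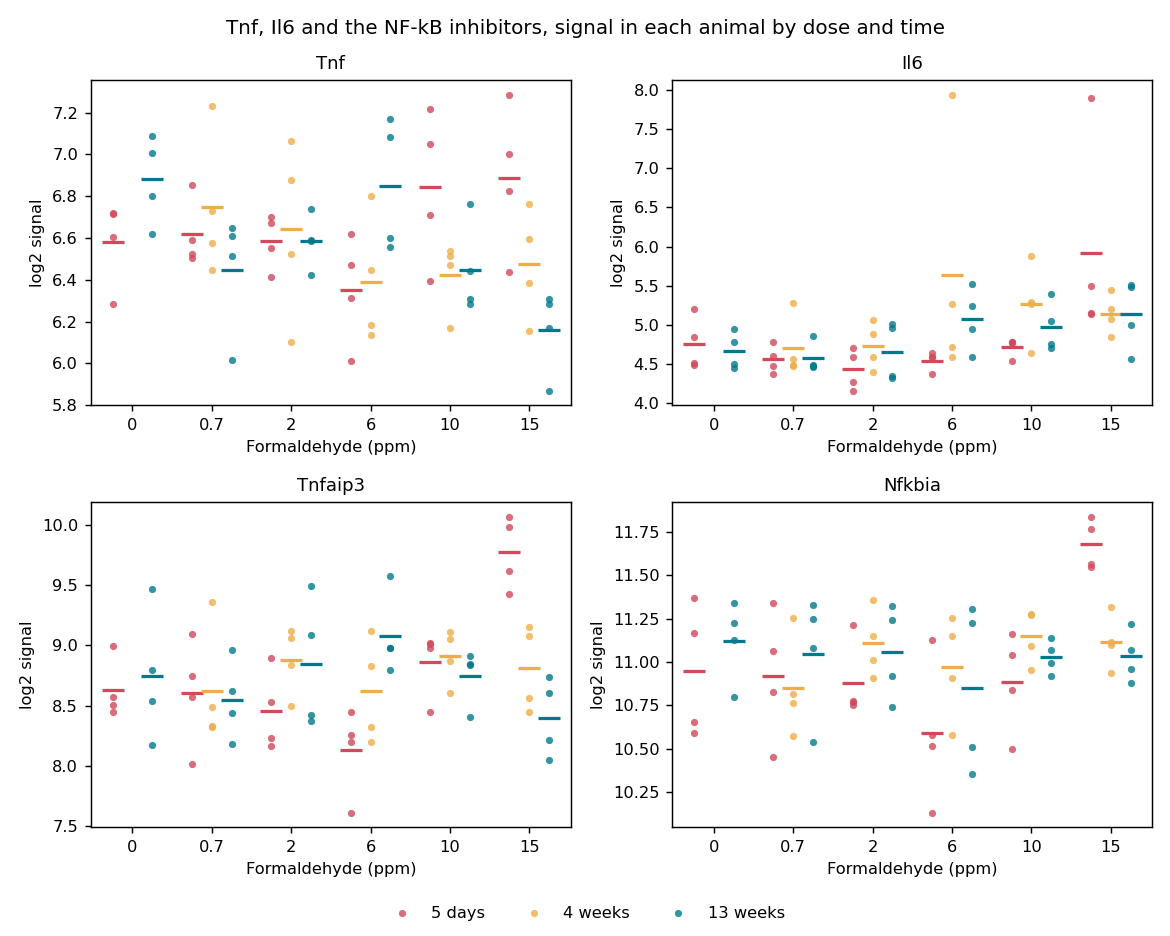
Log2 signal (vertical axis) of Tnf, Il6, Tnfaip3 and Nfkbia in each rat by formaldehyde concentration in ppm (horizontal axis, not to scale) and exposure time (colour), where points are rats and bars are means of 4 rats. Tnfaip3 reaches 9.42 to 10.07 in the 5 d rats of 15 ppm, single rats at 7.89 and 7.94 stand out in Il6, and Tnf is lowest at 15 ppm and 13 w.

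The genes of the NF-kB inhibitors were called higher at 5 d and 15 ppm and in no other group against its reference. Tnfaip3 had a signal of 8.45, 8.51, 8.57 and 8.99 at 0 ppm and 9.42, 9.61, 9.98 and 10.07 at 15 ppm. The groups did not overlap, and the change was 1.14 ± 0.26, or 2.21-fold (limma adjusted p = 2.6e-04). Nfkbia had a signal of 10.59, 10.66, 11.17 and 11.37 at 0 ppm and 11.54, 11.56, 11.76 and 11.84 at 15 ppm. These groups did not overlap either, and the change was 0.73 ± 0.20, or 1.66-fold (limma adjusted p = 0.0022).

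Both inhibitors also rose from 10 to 15 ppm at 5 d, Tnfaip3 by 0.91 ± 0.26 (limma adjusted p = 0.0098) and Nfkbia by 0.79 ± 0.20 (0.0032). Without rat 324 of 10 ppm the step of Tnfaip3 was 0.77 and not called (limma adjusted p = 0.055). At 4 w and 15 ppm the changes were 0.19 ± 0.26 for Tnfaip3 and 0.27 ± 0.20 for Nfkbia, and at 13 w they were -0.34 ± 0.26 and -0.09 ± 0.20. None of these 4 was called, with limma adjusted p between 0.30 and 0.75. The 95% intervals at 13 w ran from -0.85 to 0.17 for Tnfaip3 and from -0.49 to 0.31 for Nfkbia.

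Promoters of these genes are shown because the inhibitors are textbook targets of NF-kB and moved together at 5 d. The 250 bases before the start of each gene were read from RefSeq promoters of the GRCr8 build, in which 9 of the 10 genes were matched (Il33 with 2 starts). Il1r2 was not matched. Both strands were searched for the NF-kB consensus, and 3 of the 9 genes had a match, namely Tnfaip3, Nfkbia and Il6, while 3.54% of the 33469 promoters of this length had one. Il1b is shown as the matched gene with the largest change, and it held no match in this window. Capitals mark the matches, and the sequences run 5′ to 3′ along the gene. They lie at chr1:15543980-15544229 for Tnfaip3, chr6:78597073-78597322 for Nfkbia, chr4:5894576-5894825 for Il6 and chr3:137036582-137036831 for Il1b, all on the minus strand.
Tnfaip3: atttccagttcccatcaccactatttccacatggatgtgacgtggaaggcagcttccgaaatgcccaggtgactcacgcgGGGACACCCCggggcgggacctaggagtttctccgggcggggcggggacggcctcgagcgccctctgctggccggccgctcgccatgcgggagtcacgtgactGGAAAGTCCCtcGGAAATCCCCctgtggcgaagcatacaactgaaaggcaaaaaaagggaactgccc
Nfkbia: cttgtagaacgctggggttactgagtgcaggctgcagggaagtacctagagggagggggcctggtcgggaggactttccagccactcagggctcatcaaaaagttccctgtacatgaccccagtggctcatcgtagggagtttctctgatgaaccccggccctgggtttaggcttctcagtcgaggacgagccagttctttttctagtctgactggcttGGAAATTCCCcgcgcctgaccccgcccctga
Il6: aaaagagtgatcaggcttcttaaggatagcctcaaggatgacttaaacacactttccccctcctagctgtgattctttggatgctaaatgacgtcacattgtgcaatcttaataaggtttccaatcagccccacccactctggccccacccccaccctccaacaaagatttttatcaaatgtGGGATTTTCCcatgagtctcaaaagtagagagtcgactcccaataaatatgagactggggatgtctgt
Il1b: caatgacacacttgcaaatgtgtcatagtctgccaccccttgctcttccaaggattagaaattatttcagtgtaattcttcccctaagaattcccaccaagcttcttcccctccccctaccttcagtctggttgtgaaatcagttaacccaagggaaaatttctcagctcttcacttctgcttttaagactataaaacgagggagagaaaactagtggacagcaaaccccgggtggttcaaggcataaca

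In Tnfaip3 the matches begin 170, 67 and 55 bases before the start of the gene, the first on the gene's strand and the others on the opposite strand, where they read GGGACTTTCC and GGGGATTTCC. In Nfkbia the match begins 31 bases before the start, on the opposite strand, and reads GGGAATTTCC. In Il6 it begins 68 bases before the start, on the gene's strand. The AP-1 motif TGANTCA, searched on both strands, was found in 2 of the 9 genes, 181 bases before the start of Tnfaip3 and 12 bases before that of Il1a, against 6.34% of all promoters. It overlaps no NF-kB match in Tnfaip3. A match describes the letters only, binding was not measured, and the absence of a match in this window says nothing about a factor.

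Whether the response to 15 ppm differed between 5 d and 13 w was tested as an interaction, the difference of the 2 changes against 0 ppm. It was lower at 13 w for 5 of the 10 genes and higher for 0, while 6.09% of all genes had a lower response at 13 w and 9.21% a higher one. The differences were -3.13 ± 0.76 for Il1b (limma adjusted p = 0.0025), -2.73 ± 0.52 for Il1r2 (1.0e-04), -1.48 ± 0.36 for Tnfaip3 (0.0024), -1.03 ± 0.26 for Tnf (0.0041) and -0.82 ± 0.28 for Nfkbia (0.036). With 0.7 ppm in place of 0 ppm as the reference, the call held for Il1r2 and Tnfaip3 and not for Il1b, Tnf and Nfkbia. The call for Nfkbia was lost when any of 9 rats was left out (204 or 210 of 0 ppm and 354 or 356 of 15 ppm at 5 d, or 226, 229 or 230 of 0 ppm and 375 or 378 of 15 ppm at 13 w), with limma adjusted p between 0.053 and 0.10. That for Tnf rests on the probe set described above and was not made with RNA integrity as a covariate, where the difference was -0.74 (limma adjusted p = 0.062).

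No difference between 5 d and 13 w was called for the antagonist and for Il18. It was -0.06 ± 0.40 for Il1rn, with a 95% interval from -0.85 to 0.73, and 0.23 ± 0.26 for Il18, with an interval from -0.28 to 0.75. Il1a (-1.08 ± 0.59), Il6 (-0.69 ± 0.57) and Il33 (0.13 ± 0.20) were not called either. Of the 10 genes 0 were called by limma for this difference at 6 ppm (0% of all genes) or at 10 ppm (0.00703%), with 1 each at an unadjusted p under 0.05.

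With 0.7 ppm as the reference at every time, the response to 15 ppm was lower at 13 w than at 5 d for 2 of the 10 genes, against 6.83% of all genes. These were Il1r2, at -2.98 ± 0.52 (limma adjusted p = 3.3e-05), and Tnfaip3, at -1.31 ± 0.36 (0.0080). For Il1b the difference was -1.86 ± 0.76 and was not called (limma adjusted p = 0.090), but without rat 235 of 0.7 ppm at 5 d it was -2.54 and was called (0.013). That for Nfkbia, -0.77 ± 0.28, was just short of the threshold (limma adjusted p = 0.050). Between 4 w and 5 d limma called 0 of the 10 (3.45% of all genes), with 3 at an unadjusted p under 0.05, and between 13 w and 4 w it called 0 (0.0633%), with 1 at an unadjusted p under 0.05. For Il1r2 the difference between 4 w and 5 d was -1.54 ± 0.52 (limma adjusted p = 0.088), and without rat 235 of 0.7 ppm or rat 356 of 15 ppm at 5 d it was -1.90 or -1.78 and was called (0.030 and 0.050). The untreated level itself was not called as different between 13 w and 5 d at 0 ppm for any of the 10 by limma (2.24% of all genes), with 0 at an unadjusted p under 0.05.

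**Figure D3:**
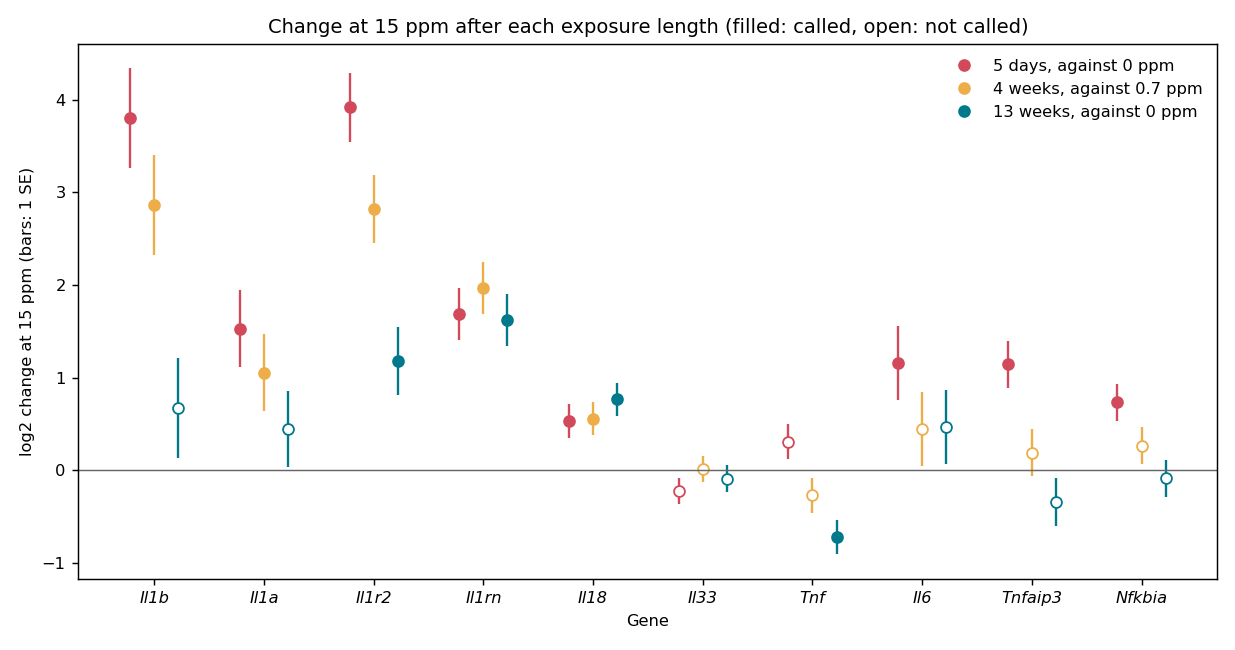
Log2 change at 15 ppm (vertical axis, bars are 1 SE) of each of the 10 genes (horizontal axis) after 5 d and 13 w against 0 ppm and after 4 w against 0.7 ppm, with filled points for called changes. Il1b goes from 3.80 at 5 d to 0.67 at 13 w and Il1r2 from 3.92 to 1.18, while Il1rn lies between 1.62 and 1.96 at all 3 times.

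The order of the group means restates the values from which the changes above were taken. For Il1b the highest means were 12.38 (5 d, 15 ppm), 11.05 (4 w, 15 ppm) and 10.21 (4 w, 10 ppm), and the next, 9.72 (13 w, 15 ppm), overlapped rats of several groups of 10 ppm or less. For Il1r2 they were 10.91, 9.29 and 8.02 in the same 3 groups, followed by 7.82 at 13 w and 15 ppm, whose rats overlapped those of the group before it. For Il1rn the 3 highest means were those of 15 ppm at 13 w (9.09), 5 d (8.91) and 4 w (8.85), and the rats of these groups overlapped. For Tnfaip3 and Nfkbia the 5 d group of 15 ppm came first (9.77 and 11.68), and the second group was 13 w at 6 ppm for Tnfaip3 (9.08) and 4 w at 10 ppm for Nfkbia (11.15).

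Some groups held rats with unlike values. At 10 ppm and 5 d the Il1b signals of rats 324, 328, 329 and 330 were 8.43, 7.92, 10.53 and 10.86, which gave that group the widest spread of Il1b (SD 1.48). In the same order the rats had Il1r2 signals of 7.09, 6.44, 8.45 and 8.13, Il1a signals of 5.65, 6.04, 7.00 and 7.38, and Tnf signals of 6.40, 6.71, 7.05 and 7.21. Among the 4 rats of 0.7 ppm at 5 d, rat 235 had 10.47 for Il1b, 7.53 for Il1a, 7.63 for Il1r2 and 7.97 for Il1rn, each the highest of its group. At 2 ppm and 13 w, rat 286 had 9.97 for Il1b and 8.45 for Il1a, the latter the highest Il1a value of all 68 arrays.

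The summed signals of neutrophil-associated and of macrophage and dendritic markers were highest at 5 d and 15 ppm. At 13 w and 15 ppm most of these markers were not called higher. The arrays hold a mixture of cells, and in such bulk samples more cells of a type and more RNA per cell cannot be told apart. Although olfactory epithelium was described as not kept, the olfactory neuron marker Omp had a mean of 12.78 at 0 ppm and 5 d. The summed linear signal of 6 such markers was 10665 to 22378 in those rats and 5221 to 21748 in the rats of 15 ppm at 5 d. At 13 w it was 2837 to 16390 at 0 ppm and 1869 to 17871 at 15 ppm. At 15 ppm 0 of the 6 were called at 5 d or 13 w. Epithelial markers were well measured, with none of 11 under a mean of 6 in any group. At 15 ppm 5 of them (45.5%) were called higher and 3 (27.3%) lower at 5 d, and 7 (63.6%) and 2 (18.2%) at 13 w. Of 7 ciliated cell markers 4 (57.1%) were lower at 5 d and 7 (100%) at 13 w. Of 8 fibroblast markers 0 were called at 5 d and 3 (37.5%) were lower at 13 w. For all genes the shares were 18.3% higher and 19.5% lower at 5 d, and 23.5% and 20.6% at 13 w. Of the 15 listed neutrophil-associated markers 7 were measured, and 6 of these (85.7%) were called higher at 5 d and 15 ppm, with a median change of 3.31, while 5 (71.4%) were called higher at 4 w and 2 (28.6%) at 13 w. Csf3r, the receptor of granulocyte colony-stimulating factor, rose at 5 d from a mean of 5.44, which is low signal, to 9.20 (limma adjusted p = 8.1e-14), and at 13 w its means were 5.71 and 6.19 (0.25).

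The summed linear signal of the 7 neutrophil-associated markers was 1259 to 5259 in the rats of 0 ppm and 18655 to 29529 in those of 15 ppm at 5 d. At 4 w it was 836 to 2040 at 0.7 ppm, 4292 to 9778 at 10 ppm and 5856 to 10778 at 15 ppm, and at 13 w it was 828 to 3907 at 0 ppm and 1702 to 5386 at 15 ppm. The 3 groups with the highest medians of this sum (26545, 8026 and 6106) were also the 3 with the highest mean Il1b and Il1r2. In the same order their medians of the macrophage and dendritic sum, 45017.9, 15148.5 and 15446.3, were the highest too. Rat 268 of 2 ppm at 5 d had a neutrophil-associated sum of 9609, while Il1b was at most 9.08 in its group. The neutrophil-associated sum is dominated by S100a8 and S100a9, which epithelial cells can also express. Of the 7 markers 4 had a mean under 6 at 0 ppm at both times. Of these, Cxcr1 and Mmp8 were also under 6 at 15 ppm at 5 d and 13 w, while Csf3r and Cxcr2 reached 9.20 and 6.79 at 15 ppm and 5 d.

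Of the 15 measured macrophage and dendritic markers 9 (60%) were called higher at 5 d and 15 ppm and 6 (40%) at 4 w. At 13 w 1 (6.67%) was higher and 5 (33.3%) lower. Of all genes 18.3% were higher at 5 d, 21.3% at 4 w and 23.5% at 13 w, and 20.6% were lower at 13 w. Their summed signal was 12696 to 15802 at 0 ppm and 38068 to 46713 at 15 ppm at 5 d, and 8147 to 12043 and 6117 to 10748 at 13 w. Of the 6 general leukocyte markers 5 (83.3%) were higher at 5 d, and at 13 w 0 were higher and 1 (16.7%, under the share of all genes) lower. Of 13 lymphocyte markers 7 (53.8%) were higher at 5 d and 5 (38.5%) lower at 13 w. The part of these cells in the changes of the 10 genes was not tested. In rats 324, 328, 329 and 330 of 10 ppm at 5 d the neutrophil-associated sums were 1890, 2775, 4035 and 3928.

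**Figure D4:**
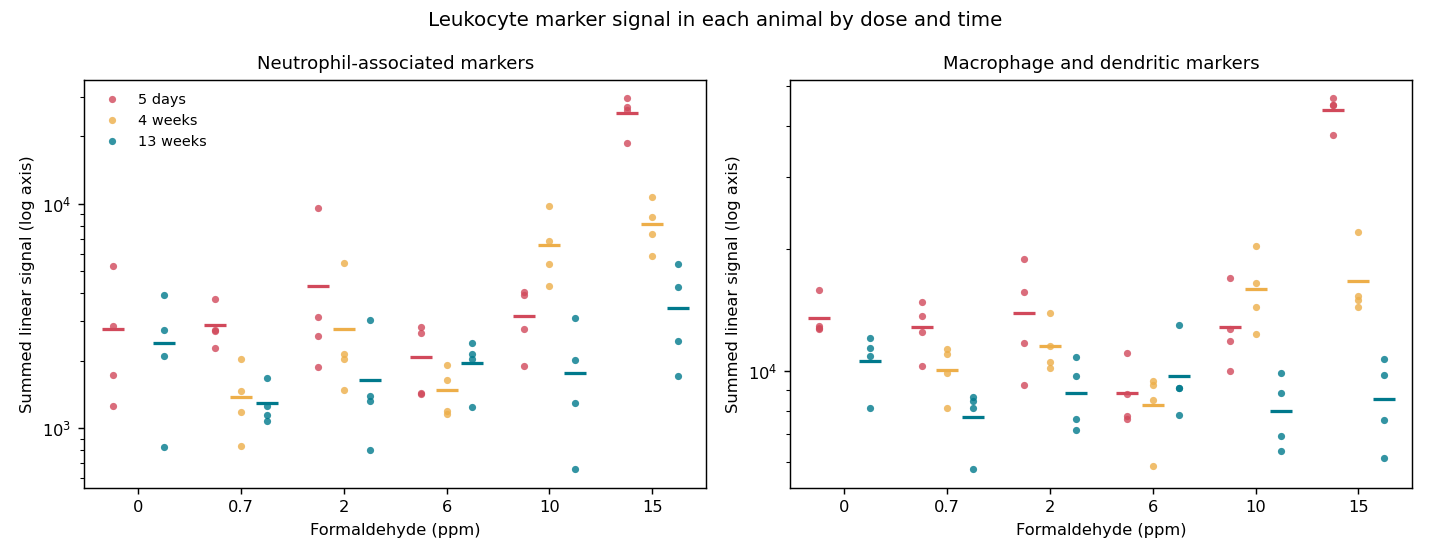
Summed linear signal (vertical axis, log scale) of 7 neutrophil-associated markers (left) and of 15 macrophage and dendritic markers (right) in each rat by formaldehyde concentration in ppm (horizontal axis, not to scale) and exposure time (colour), where points are rats and bars are means of 4 rats. Both sums are highest in the 5 d rats of 15 ppm, at 18655 or more and 38068 or more, and at 13 w the 15 ppm rats overlap those of 0 ppm.

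Measures of RNA quality differed between groups. The mean RNA integrity number, for the rats that had one, was mostly higher at the upper doses at 5 d and 13 w. From 0 to 15 ppm it was 7.68, 7.78, 7.93, 8.47, 8.50 and 8.32 at 5 d. In the same order it was 7.57, 8.15, 7.60, 8.43, 8.45 and 8.90 at 13 w. At 4 w it was 8.20, 7.25, 8.15, 8.10 and 8.72 from 0.7 to 15 ppm. The beta-actin measure followed no steady order of dose. The difference between the 3′ and 5′ signals of beta-actin, which grows as RNA degrades or is copied less far, averaged 1.71 at 0 ppm, 1.96 at 0.7 ppm, 1.83 at 2 ppm, 2.61 at 6 ppm, 2.05 at 10 ppm and 2.47 at 15 ppm at 5 d. At 4 w its group means were 1.75 to 1.86, and at 13 w it averaged 1.58 at 0 ppm, 1.71 at 15 ppm and up to 2.01, at 2 ppm, in the other groups. Arrays of 1 group correlated at 0.977 to 0.996 across probe sets.

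Of 98 further genes of these pathways, in 6 lists, 39 (39.8%, against 18.3% of all genes) were called higher and 7 (7.14%, against 19.5%) lower at 5 d and 15 ppm, with a median change of 0.16 against -0.01 for all genes. At 4 w 33 (33.7%, against 21.3% of all genes) were higher and 11 (11.2%, against 16.1%) lower, with a median of 0.09 against 0.01. At 13 w 26 (26.5%, against 23.5% of all genes) were higher and 19 (19.4%, against 20.6%) lower, with a median of -0.03 against -0.02, so the counts at 13 w were near those of all genes. For 23 of the 98 (23.5%, against 6.09% of all genes) the response at 15 ppm was lower at 13 w than at 5 d, and for 4 (4.08%, against 9.21%) it was higher.

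In the interleukin-1 family list, 5 of 12 genes rose (41.7%, against 18.3% of all genes) and 1 fell at 5 d, and 2 rose (16.7%, against 23.5%) and 6 fell (50%, against 20.6%) at 13 w. Il1rap, the accessory protein that the interleukin-1 receptor needs to signal, rose by 0.71 ± 0.14 at 5 d (limma adjusted p = 7.0e-05), and at 13 w its change of -0.20 ± 0.14 was not called (0.28). Casp4, an inflammatory caspase, rose by 0.66 ± 0.13 at 5 d and fell by 0.76 ± 0.13 at 13 w (limma adjusted p = 5.0e-05 and 3.0e-06). Il18bp, a secreted inhibitor of interleukin-18, likewise rose by 0.46 ± 0.15 and fell by 0.40 ± 0.15 (limma adjusted p = 0.012 and 0.025). The difference between the times was called for all 3, at -0.91 ± 0.20 for Il1rap, -1.42 ± 0.19 for Casp4 and -0.86 ± 0.21 for Il18bp (limma adjusted p = 0.0010, 7.6e-08 and 0.0028). Gsdmd, which encodes a pore-forming protein of inflammatory cell death, fell by 0.53 ± 0.15 at 13 w (limma adjusted p = 0.0022), and Il36rn, an antagonist of the interleukin-36 receptor, rose by 0.58 ± 0.14 (4.8e-04). Il36b rose at low signal, from a mean of 3.79 to 4.36 at 5 d and from 3.75 to 4.91 at 13 w (limma adjusted p = 0.0012 and 1.2e-09).

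In the interleukin-6 family list, 3 of 16 genes rose at 5 d (18.8%, near the 18.3% of all genes) and 1 fell, and at 13 w 1 rose (6.25%, against 23.5%) and 5 fell (31.2%, against 20.6%). Osm, the gene of oncostatin M, rose from a mean of 5.62, which is low signal, to 8.19 at 5 d (limma adjusted p = 2.2e-12), and at 13 w its means were 5.76 and 6.02 (0.44). Its response differed between the times by -2.31 ± 0.35 (limma adjusted p = 2.2e-06). Socs3, a feedback inhibitor of this pathway, rose by 0.52 ± 0.18 at 5 d (limma adjusted p = 0.018). Clcf1, the gene that rose at 13 w, had low signal. Its means rose from 4.40 to 5.65 at 5 d and from 4.53 to 5.68 at 13 w (limma adjusted p = 3.8e-11 and 2.6e-10). Il11ra1, a receptor subunit for interleukin-11, fell by 1.26 ± 0.21 at 13 w (limma adjusted p = 1.3e-06), and the kinase gene Jak2 fell there by 0.55 ± 0.10 (1.3e-05). The kinase gene Jak1 fell at both times, by 0.28 ± 0.05 at 5 d and 0.32 ± 0.05 at 13 w (limma adjusted p = 2.2e-05 and 1.0e-06).

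In the TNF family list, 8 of 22 genes rose at 5 d (36.4%, against 18.3% of all genes) and 1 fell, and at 13 w 5 rose (22.7%, near the 23.5% of all genes) and 2 fell (9.09%, against 20.6%). The receptor gene Tnfrsf1a rose by 0.49 ± 0.08 at 5 d and by 0.33 ± 0.08 at 13 w (limma adjusted p = 3.3e-06 and 8.1e-04). The second receptor gene, Tnfrsf1b, which is mostly expressed by leukocytes, rose at 5 d from a low mean of 5.35 to 7.11 (limma adjusted p = 5.1e-14) and was not called at 13 w (0.18). Birc3, an NF-kB-induced inhibitor of cell death, rose by 1.55 ± 0.19 at 5 d, and its response differed by -1.81 ± 0.26 at 13 w (limma adjusted p = 1.3e-09 and 8.4e-07). Adam17, the protease that releases TNF from cells, rose by 0.39 ± 0.15 at 5 d and by 0.99 ± 0.15 at 13 w (limma adjusted p = 0.034 and 1.9e-07). Tnfsf10, the gene of the death ligand TRAIL, fell at both times, by 1.13 ± 0.27 and 1.53 ± 0.27 (limma adjusted p = 7.0e-04 and 5.1e-06), and Ltb, the gene of lymphotoxin beta, fell by 1.76 ± 0.21 at 13 w (4.7e-10).

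Among 18 adaptors and kinases 7 rose (38.9%, against 18.3% of all genes) and 2 fell at 5 d, and 9 rose (50%, against 23.5%) and 1 fell at 13 w. Map3k8, a kinase activated downstream of the interleukin-1 and TNF receptors, rose by 2.08 ± 0.21 at 5 d and by 1.40 ± 0.21 at 13 w (limma adjusted p = 1.3e-11 and 2.3e-07). Myd88, the adaptor of the interleukin-1 receptor, rose by 0.87 ± 0.09 and 0.54 ± 0.09 (limma adjusted p = 1.8e-11 and 1.3e-06). Irak3, an inhibitor of this adaptor's signalling, rose by 0.41 ± 0.16 and 0.88 ± 0.16 (limma adjusted p = 0.031 and 4.3e-06).

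Among 13 NF-kB subunits and inhibitors 7 rose (53.8%, against 18.3% of all genes) and 1 fell at 5 d. At 13 w 4 rose (30.8%, against 23.5%) and 3 fell (23.1%, against 20.6%), both near the shares of all genes. Nfkbib, a further inhibitor, rose by 0.57 ± 0.07 at 5 d (limma adjusted p = 5.9e-09), and at 13 w its change of 0.14 ± 0.07 was not called (0.11). The difference of -0.43 ± 0.10 was called (limma adjusted p = 0.0022). Bcl3, a nuclear relative of these inhibitors, rose by 0.92 ± 0.21 and 0.89 ± 0.21 (limma adjusted p = 2.8e-04 and 3.0e-04). The subunit gene Nfkb2 rose by 0.92 ± 0.15 at 5 d and by 0.44 ± 0.15 at 13 w (limma adjusted p = 8.9e-07 and 0.012), while Nfkb1 and Relb fell at 13 w by 0.48 ± 0.12 and 0.40 ± 0.09 (5.0e-04 and 1.5e-04).

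Among 17 genes known as NF-kB targets 9 rose (52.9%, against 18.3% of all genes) and 1 fell at 5 d, with a median change of 0.75 against -0.01 for all genes. At 13 w 5 rose (29.4%, against 23.5%) and 2 fell (11.8%, against 20.6%), with a median of 0.08 against -0.02. Some were called at 5 d and not at 13 w. Bcl2a1, a survival gene prominent in leukocytes, rose by 3.19 ± 0.30 at 5 d (limma adjusted p = 7.5e-13) and was not called at 13 w (0.27), and Icam1, the adhesion molecule that leukocytes bind, rose by 1.47 ± 0.16 (3.7e-11) and was not called at 13 w (0.18). Their responses differed between the times by -2.77 ± 0.42 and -1.21 ± 0.22 (limma adjusted p = 2.3e-06 and 6.2e-05). Others were called at both times. Ptgs2, the inducible enzyme of prostaglandin synthesis, rose by 2.71 ± 0.38 and 1.99 ± 0.38 (limma adjusted p = 6.6e-08 and 1.9e-05), Ier3 by 1.38 ± 0.18 at each time (1.1e-08 and 5.5e-09), and Plau, the urokinase gene, by 1.37 ± 0.18 and 1.20 ± 0.18 (8.0e-09 and 1.2e-07). For these 3 the difference between the times was not called, at -0.72 ± 0.54, 0.00 ± 0.26 and -0.18 ± 0.25. Gadd45b, a stress-response gene, also rose at both times, by 1.90 ± 0.15 and 1.24 ± 0.15 (limma adjusted p = 1.1e-15 and 3.9e-10), and for it the difference of -0.65 ± 0.21 was called (0.024).

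**Figure D5:**
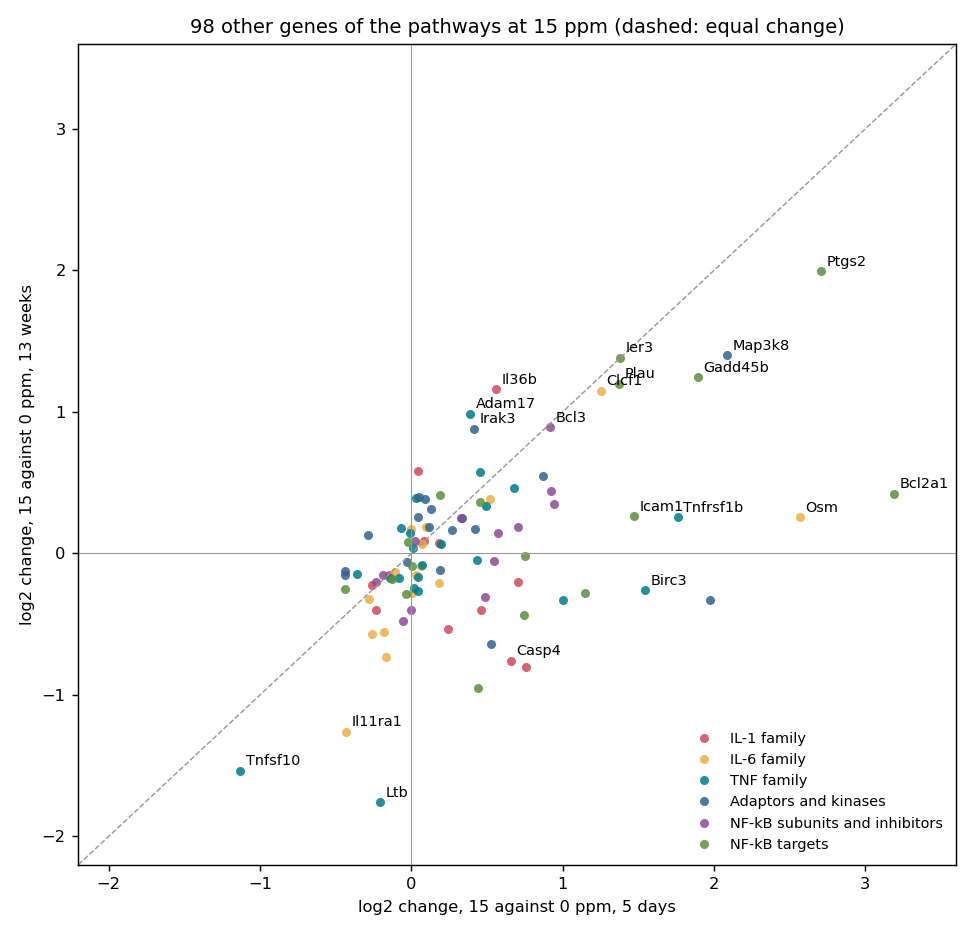
Log2 change at 15 against 0 ppm after 5 d (horizontal axis) and after 13 w (vertical axis) for 98 further genes of the pathways, coloured by list, with the dashed line at equal change. Bcl2a1, Osm, Tnfrsf1b and Icam1 lie far right near a change of 0 at 13 w, Ptgs2, Map3k8 and Ier3 lie high on both axes, and Casp4 lies below 0 at 13 w.

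Genes whose 17 group means followed those of a member most closely were sought among 11747 genes that reached a mean of 6 or more in some group. For Il1b these were Ccl3 (Pearson's r = 0.979), Cxcl2 (0.979) and Csf3r (0.969). For Il1r2 they were Ccl3 (0.982), Lilrb4 (0.975) and Dusp2 (0.971). For Il1rn they were Cxcl6 (0.972), Cxcl1 (0.969) and Arpc5 (0.962), and for Il18 they were Ctsl (0.982), Rab5if (0.981) and Btg3 (0.977). Ccl3, Cxcl1, Cxcl2 and Cxcl6 encode chemokines that attract leukocytes. The correlations are descriptions over 17 group means that share the same arrays, and Il1b and Il1r2 correlated with each other at 0.964.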

How the data were processed

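The authors deposited log2 signals from RMA (version not given) after GCOS 1.0, as the submitters' processing notes name these tools, and no further scaling was applied. The array holds 31099 probe sets: 57 are controls, 20826 map to a single gene, 436 to more than 1 gene, and 9780 to none. Each of 14217 genes was represented by its brightest probe set. A limma model (3.58.1, R 4.3.3) with a mean for every group was fitted, giving 51 residual and 2.85 prior degrees of freedom, and Benjamini-Hochberg adjustment was done per comparison. The fit was tested on simulated data. Precision is limited by the number of arrays, with a median SE of 0.104. In 19 of 20 samples labelled 4 w a treatment field reads 5 days. The other labels of these samples, which read 4 weeks, were used. The 5 d of the labels appears as 1 week in the series text.

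The genes, lists, tests and markers were chosen with earlier results of these data known. All 10 genes are named. Up to 4 called genes per pathway list and time were open to naming, by smallest adjusted p at 15 ppm at 5 d and at 13 w, and the 3 most alike genes for at most 4 members. Alternatives were other scalings, a filter on low signal, other treatments of several probe sets, a 1.5-fold minimum, adjustment over all comparisons, array weights, a trended and robust variance, separate fits, RNA integrity, 0.7 ppm as the reference and leaving out each array. Fits with RNA integrity as a covariate used only the rats that had the number. Beta-actin as a covariate was added after the data were seen. Promoters come from RefSeq (GRCr8).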

Additional observations from a re-analysis of the deposited data

Results flagged for a closer look

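In 16 of 170 groups of 4 rats, 1 rat stood apart from the other 3, in that its gap to the nearest divided by the range of the group was above 0.829. Chance gives such a gap in about 1 in 20 groups, and rats were tested gene by gene, so the cases are not independent. No explanation was tested for any of them.

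At 5 d, rat 235 of 0.7 ppm was the highest in Il1a (7.53, others at most 5.85, ratio of gap to range 0.949) and in Il1b (10.47, others at most 8.02, 0.844). Rat 298 of 6 ppm was the highest in Il1b (9.47, others at most 7.97, 0.870). Rat 329 of 10 ppm was the highest in Il1rn (8.66, others at most 7.59, 0.914) and the lowest in Il6 (4.54, others at least 4.77, 0.941). Rat 324 of 10 ppm was the lowest in Tnfaip3 (8.44, others at least 8.98, 0.932), and rat 268 of 2 ppm was the highest in Nfkbia (11.21, others at most 10.78, 0.947). Rat 356 of 15 ppm was the highest in Il6 (7.89, others at most 5.50, 0.869), and rat 359 of 15 ppm was the lowest in Il33 (11.58, others at least 12.01, 0.868).

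At 4 w, rat 242 of 0.7 ppm was the lowest in Il1r2 (6.13, others at least 6.57, 0.918) and the highest in Il6 (5.28, others at most 4.56, 0.893) and in Tnfaip3 (9.36, others at most 8.49, 0.840). Rat 333 of 10 ppm was the lowest in Tnf (6.17, others at least 6.47, 0.829). At 13 w, rat 257 of 0.7 ppm was the highest in Il6 (4.86, others at most 4.49, 0.925), rat 348 of 10 ppm was the lowest in Tnfaip3 (8.41, others at least 8.84, 0.865), and rat 378 of 15 ppm was the highest in Il18 (10.83, others at most 10.51, 0.925).

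The change at 15 ppm against 0 ppm differed between 13 w and 5 d, by the interaction test of the limma fit, for Il1b (-3.13), Il1r2 (-2.73), Tnfaip3 (-1.48), Tnf (-1.03) and Nfkbia (-0.82). With 0.7 ppm as the reference it differed for Il1r2 (-2.98) and Tnfaip3 (-1.31).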

How the results depend on the processing

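Of 37 called changes of single genes, none reversed. Over the settings other than leaving out a rat, 474 values kept their direction and call and 19 kept the direction and lost the call. Over fits without 1 rat, 321 kept both and 31 lost the call. The counts of called genes that moved by over 1.5 times were as follows. At 10 ppm and 5 d (0 called), 1 was called with a filter on low signal, with RNA integrity as a covariate, without the arrays that lack that number and against 0.7 ppm, and 2 with beta-actin as a covariate, which was added after the data were seen. At 6 ppm and 13 w (0 called), 1 was called with array weights, against 0.7 ppm and with beta-actin. With RNA integrity as a covariate 1 in place of 2 was called at 10 ppm and 13 w, 2 in place of 4 at 15 ppm and 13 w, and 3 in place of 5 for the difference of 13 w and 5 d at 15 ppm. For 15 against 10 ppm at 13 w (1 called) it was 3 with array weights and 0 with RNA integrity or without the arrays that lack it. With 0.7 ppm as the reference at 15 ppm, the difference of 4 w and 5 d (0 called) had 1 with array weights or adjustment over all comparisons and 2 with beta-actin, and that of 13 w and 5 d (2 called) had 4 with array weights. The causes were not tested. Leaving out 1 rat gave 6 to 8 called at 15 ppm and 5 d, 4 to 5 at 4 w and 3 to 4 at 13 w, 0 to 1 at 10 ppm and 5 d, 0 to 1 at 6 ppm and 13 w and 2 to 3 at 10 ppm and 13 w. For 15 against 10 ppm it gave 4 to 6 at 5 d, 0 to 1 at 4 w and 0 to 2 at 13 w. For the difference of 13 w and 5 d at 15 ppm it gave 4 to 5, and with 0.7 ppm as the reference 2 to 3, and for that of 4 w and 5 d 0 to 1. Low signal limits Il6, whose group means were all under 6, and Il1a. No paired analysis was possible because no label pairs animals across groups.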
